A study of Mus musculus with 12 samples.

Results

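The genes described here encode proteins of dendrites and dendritic spines and regulators of spine actin: Synpo, Ddn, Gda, Itpka, Kalrn, Tiam1, Tiam2, Pak1, Pak3 and Pak6. They are 10 of the 15759 entries of the deposited table, found by symbol, and all 10 passed the filter on low counts, which left 15369 tested genes. The 10 genes were chosen by function and from the known differences between genotypes in these same libraries, so those differences are given below as a description and not as independent evidence. The libraries form 4 groups of 3: whole cortex and whole cerebellum of SCA1 KI mice, a knock-in model of spinocerebellar ataxia type 1, and the same regions of their WT littermates, all at 12 weeks of age. SCA1 KI mice (Atxn1 [154Q/2Q]) carry 154 glutamine codons in one copy of Atxn1 and 2 in the other, under the gene's own promoter in every cell that uses it. The labels give males, whereas the methods describe both sexes combined. Nothing in the labels says how mice map to libraries, so the spread is that between these libraries. The study took the cerebellar libraries from an earlier dataset of the same laboratory, so brain region and dataset cannot be told apart.

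Dendritic spines are the small protrusions on which most excitatory synapses of the forebrain sit, and their shape is held by a dense network of actin filaments. Rac, a small GTPase, is switched on there by exchange factors such as kalirin and the Tiam proteins, and active Rac binds and activates the group I p21-activated kinases (PAKs), which act on LIM kinase and cofilin to slow the turnover of filaments. Synaptopodin organizes the spine apparatus, a stack of endoplasmic reticulum in the spines of cortical and hippocampal neurons, and Purkinje cells of the cerebellum have spines that lack this organelle.

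Values are normalized counts, that is the reads on a gene after scaling by the library's size factor, and the libraries held 29520855 to 51311309 reads on genes. Emx1, a marker of cortical excitatory neurons, had 802 to 1143 normalized counts in WT cortex and 524 to 915 in SCA1 KI cortex, and 0 to 5.81 in the cerebellum. Fezf2 was likewise near 0 in the cerebellum, whereas other markers of that list were not (Bhlhe22, 2588 to 3447). Gabra6, a receptor subunit of cerebellar granule cells, lay at 20711 to 32164 in the cerebellum and at most at 42.1 in the cortex. The knock-in gene Atxn1 itself had 7370 ± 815 (SD, n = 3) normalized counts in WT cortex and 6040 ± 1337 in SCA1 KI cortex, with ranges that overlapped, and these counts do not measure the repeat. Among the SCA1 KI libraries of the cortex, A differed most from the others (chi-square per gene 32.8 against E and 35.96 against F, beside 10.35 between E and F) and had the highest sum of midbrain markers (1771). Of the midbrain markers, only Tal1 (991), Pou4f1 (372) and Gata2 (279) were highest in A, and the others were highest in F. Library F held 42.3 normalized counts of the midbrain gene Pax7 against 0 and 1.01 in A and E. It held 46.0 of Gata3, against 1.97 in A and at most 2.28 in WT cortex. Otx2 (40.5), Th (561) and Slc6a3 (19.8) were highest in F too. The sum therefore does not set A apart for most genes of that list.

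In the cortex, 6 of the 10 genes were called lower in SCA1 KI and none higher: Synpo, Ddn, Itpka, Kalrn, Pak1 and Pak6. A gene was called, that is listed as a differentially expressed gene (DEG), when its log2 fold change (LFC) exceeded 0.25 in size and limma gave an adjusted p under 0.05 over all tested genes, limits that 10.8% of all tested genes met in the lower direction and 4.82% in the higher. In the cerebellum 5 were called lower (Synpo, Ddn, Gda, Kalrn and Pak6), against 4.44% of all genes, and Tiam2 was called higher, against 0.917%. Synpo, Ddn, Kalrn and Pak6 were called lower in both regions, as were 1.28% of all genes, and Tiam1 and Pak3 were called in neither. The median LFC of the 10 genes was −0.63 in the cortex and −0.58 in the cerebellum, beside −0.0028 and −0.0049 over all tested genes. These genes were selected on this contrast, so nothing is read from the distance to those backgrounds.

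**Figure D1:**
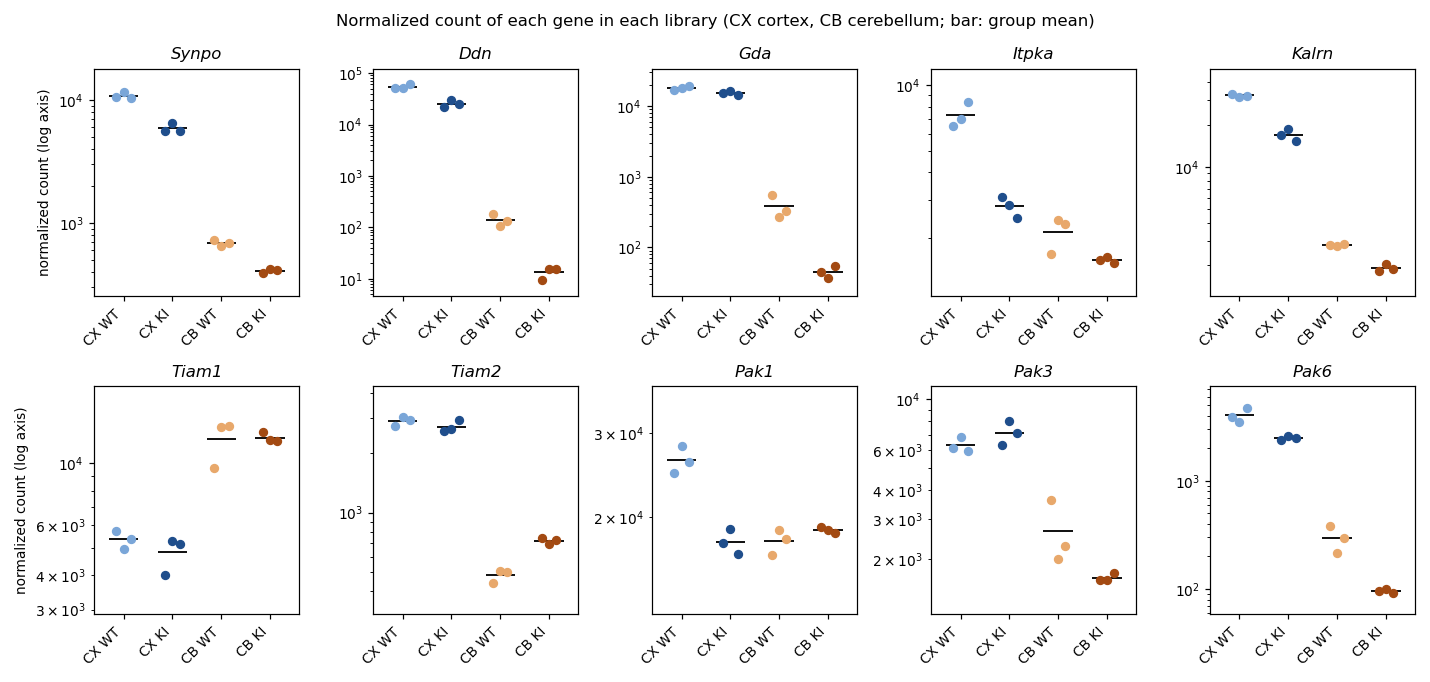
Normalized count (log axis, scaled per panel) of each of the 10 genes in the 3 libraries of each group, with a bar at the group mean. Synpo, Ddn, Gda, Kalrn and Pak6 lay far lower in the cerebellum than in the cortex and lower again in the SCA1 KI cerebellum. Tiam1 was the one gene of the 10 with more counts in WT cerebellum than in WT cortex. Pak1 differed between genotypes in the cortex and not in the cerebellum.

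RefSeq promoters (GRCm38.p6, 250 bases before to 50 after a transcript start) were at hand for 8 of the 10 genes, 15 promoters in all, and not for Synpo and Ddn. They were searched on both strands for the cyclic AMP response element TGACGTCA, the CArG box bound by serum response factor, and the octamers TGAATGAA and TGAATGGA bound by Capicua, the repressor known to form a complex with ataxin-1. Printed here in lower case, 5′ to 3′ on the gene's strand and with motif matches in capitals, are a Pak1 promoter (chr7:97788291-97788590, plus strand), which held 2 matches, and the Itpka (chr2:119742087-119742386, plus strand) and Kalrn (chr16:34513978-34514277, minus strand) promoters, which held none, as 3 examples from the genes called lower in the cortex. The 2 promoters of Pak6, which was called lower there too, held no match and are not printed. The Kalrn window, the only one of that gene, belongs to a start inside the annotated gene. The 5′ end of Kalrn at 34573532 was not searched.
Pak1: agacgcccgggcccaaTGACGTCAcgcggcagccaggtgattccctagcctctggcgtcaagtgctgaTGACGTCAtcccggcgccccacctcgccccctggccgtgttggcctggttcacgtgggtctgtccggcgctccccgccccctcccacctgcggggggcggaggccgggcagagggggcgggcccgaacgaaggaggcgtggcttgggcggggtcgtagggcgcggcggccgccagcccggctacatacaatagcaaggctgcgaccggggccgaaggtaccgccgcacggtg
Itpka: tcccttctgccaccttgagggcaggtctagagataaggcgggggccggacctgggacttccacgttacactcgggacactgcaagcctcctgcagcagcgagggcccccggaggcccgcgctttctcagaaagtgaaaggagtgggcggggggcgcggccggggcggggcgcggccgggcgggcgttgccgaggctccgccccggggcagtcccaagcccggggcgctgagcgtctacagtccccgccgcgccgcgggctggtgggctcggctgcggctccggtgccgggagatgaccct
Kalrn: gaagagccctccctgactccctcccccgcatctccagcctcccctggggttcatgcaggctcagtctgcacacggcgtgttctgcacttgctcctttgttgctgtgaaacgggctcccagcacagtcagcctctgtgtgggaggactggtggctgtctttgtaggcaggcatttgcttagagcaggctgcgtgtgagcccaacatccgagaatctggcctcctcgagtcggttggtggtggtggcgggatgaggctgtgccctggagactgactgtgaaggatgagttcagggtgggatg
The 2 matches of TGACGTCA in the printed Pak1 promoter begin 234 and 182 bases before the start. The other Pak1 promoter (chr7:97842689-97842988, plus strand) held no match and is not printed. A match was present in 1.79% of all 32851 promoters, and 2 or more in 0.0396% (13 promoters). The CArG box was found in 1 promoter, of Tiam1 (chr16:89974650-89974949, minus strand), and in 1.63% of all promoters. The octamers were in none of the 15 promoters and in 1.3% and 1.21% of all, and no match says only that these letters are not in these windows. The GC content of the 15 promoters had a median of 53.7%, beside 52.7% over all promoters.

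Synpo (chromosome 18, 60593973 to 60660142, GRCm38, minus strand) encodes synaptopodin, the actin-binding protein of the spine apparatus. In WT cortex it had 10494, 11659 and 10301 normalized counts in libraries B, C and D, and in SCA1 KI cortex 5597, 6548 and 5598 in libraries A, E and F. The highest SCA1 KI library lay well under the lowest WT library, and the SCA1 KI mean was 54.7% of the WT mean. In the cerebellum the counts were 731, 653 and 689.5 in WT libraries 2, 4 and 6 and 393, 424 and 417 in SCA1 KI libraries 1, 3 and 5. Here too the genotypes did not overlap, and the SCA1 KI mean was 59.5% of WT, at a level that was 15.6-fold lower in WT cerebellum than in WT cortex. The LFC was −0.87 ± 0.077 (SE) in the cortex and −0.75 ± 0.077 in the cerebellum. Both met the DEG limits, and the difference of −0.13 ± 0.11 between them did not.

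Ddn (chromosome 15, 98803777 to 98809490, minus strand) encodes dendrin, a proline-rich protein of dendrites and spines whose mRNA travels into dendrites. Its counts were 51873, 51239 and 60693 in WT cortex and 22243, 29351 and 25089.7 in SCA1 KI cortex, and every SCA1 KI library lay far under every WT library. The SCA1 KI mean, 25561 ± 3578 (SD, n = 3), was 46.8% of the WT mean of 54602 ± 5285, an LFC of −1.10 ± 0.21. In the cerebellum Ddn was a rare transcript, with 184, 105.0 and 135.1 normalized counts in WT and 9.27, 15.8 and 15.5 in SCA1 KI. The last 3 values rest on 11, 23 and 16 reads, above the floor of 3 reads. The SCA1 KI mean was 9.57% of WT, an LFC of −3.29 ± 0.21, and the groups did not overlap. The difference between the regions, 2.19 ± 0.29, met the threshold, which 8.15% of all tested genes did in either direction. Exons of Ddn share 4.68% of their bases with an antisense transcript, whose reads were not separated.

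Gda (chromosome 19, 21391307 to 21473445, minus strand) encodes guanine deaminase, also named cypin, which promotes dendrite branching and binds PSD-95. It split the regions more than any other of the 10 genes, with the largest LFC difference, 2.79 ± 0.28. In the cortex it had 16855, 18038 and 19121 counts in WT and 15430.0, 16223 and 14487 in SCA1 KI, which did not overlap but lay close, with an LFC of −0.23 ± 0.20 that did not meet the limits. In the cerebellum the counts were 545, 272 and 331 in WT and 44.7, 36.4 and 54.2 in SCA1 KI. The lowest WT library held more than the SCA1 KI libraries added together, and the SCA1 KI mean was 11.8% of WT, an LFC of −3.01 ± 0.20.

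Itpka (chromosome 2, 119742337 to 119751263, plus strand) encodes inositol trisphosphate 3-kinase A, which bundles F-actin in spines and phosphorylates the messenger that releases calcium from stores. In the cortex it had the most negative LFC of the 10 genes, −1.39 ± 0.13. The counts were 6519, 7015 and 8439.8 in WT and 3082, 2841 and 2461 in SCA1 KI, and the SCA1 KI mean was 38.2% of WT. In the cerebellum, where WT had 1693, 2416 and 2311 counts and SCA1 KI 1592, 1649 and 1536, WT library 2 lay just above the SCA1 KI libraries. The cerebellar LFC of −0.41 ± 0.13 did not meet the limits, but did without WT library 2 (−0.57) and with DESeq2. The difference between regions, −0.98 ± 0.19, met the threshold.

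**Figure D2:**
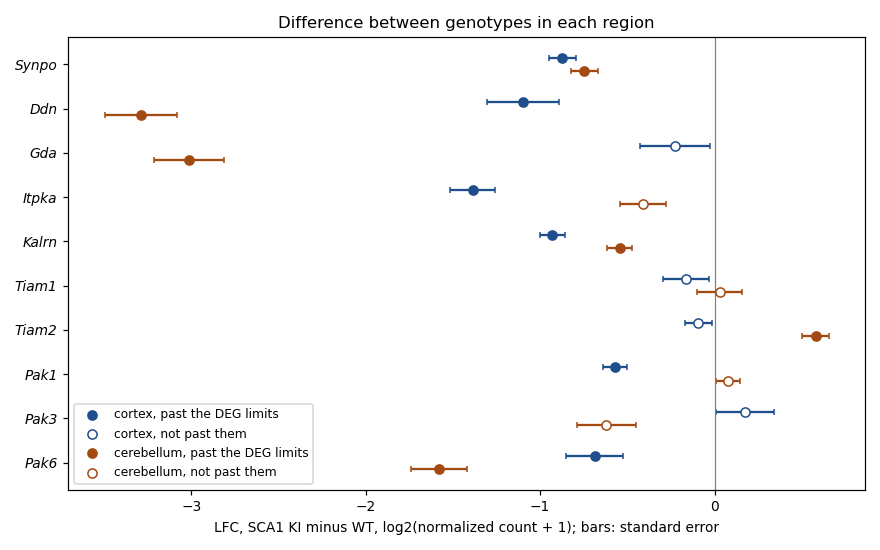
LFC of SCA1 KI against WT (log2 of normalized count + 1, with standard errors) for each of the 10 genes in cortex and cerebellum, filled where the DEG limits were met. Synpo and Kalrn lay left of 0 in both regions, Ddn, Gda and Pak6 lay furthest left in the cerebellum (−3.29, −3.01 and −1.58), Itpka and Pak1 lay further left in the cortex, and Tiam2 lay right of 0 in the cerebellum (0.58).

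The 3 Rac exchange factors did not move together. Kalrn (chromosome 16, 33969073 to 34573532, minus strand), which encodes kalirin, an exchange factor of mature spines, was lower in both regions. Its counts were 33217, 31585 and 31746 in WT cortex and 16871, 18614 and 15356 in SCA1 KI cortex, a mean of 52.7% of WT and an LFC of −0.93 ± 0.070. The SCA1 KI libraries all lay far under the WT libraries, which spanned a narrow range. In the cerebellum Kalrn had 2782, 2739.8 and 2846 counts in WT and 1818, 2055 and 1872 in SCA1 KI, 68.7% of WT and an LFC of −0.54 ± 0.070. The regions differed by −0.39 ± 0.099, which met the threshold but lost it when a length and GC trend was removed (−0.29) and in 8 of the 12 fits that left out 1 library, those without WT libraries 2, 4 or 6 or SCA1 KI libraries 3 or 5 of the cerebellum or without WT libraries B or C or SCA1 KI library F of the cortex. Over all 20 other settings it ran from −0.46 to −0.29.

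Tiam1 (chromosome 16, 89787111 to 90143769, minus strand) encodes an exchange factor that couples glutamate receptors to Rac, and it was called in neither region. Its counts were 5750.3, 4955 and 5373 in WT cortex and 3998, 5277 and 5158 in SCA1 KI cortex, which overlapped. In the cerebellum they were 9655, 13466 and 13637 in WT, where library 2 was low, and 12954, 12099 and 12029 in SCA1 KI. The LFC was −0.16 ± 0.13 in the cortex and 0.03 ± 0.13 in the cerebellum, and its sign in the cerebellum changed between settings (−0.13 to 0.12). Tiam1 was the one gene of the 10 with a higher count in WT cerebellum than in WT cortex, by 2.29-fold.

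Tiam2 (chromosome 17, 3326573 to 3531344, plus strand), the close relative of Tiam1 with roles in neurite growth, was the one gene of the 10 called higher in SCA1 KI. In the cerebellum it had 440.1, 506 and 502 counts in WT and 744, 694 and 724 in SCA1 KI. All SCA1 KI libraries lay above all WT libraries, the SCA1 KI mean was 149% of WT and the LFC 0.58 ± 0.076. In the cortex the counts of 2722, 3022 and 2936 in WT and 2571, 2654 and 2922 in SCA1 KI overlapped, with an LFC of −0.09 ± 0.076 that was 0.02 once the length and GC trend was removed. The difference between regions, −0.67 ± 0.11, met the threshold. Exons of Tiam2 share 1.12% of their bases with Tfb1m on the other strand.

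The PAK kinases each followed a pattern of their own. Pak1 (chromosome 7, 97788541 to 97912381, plus strand), a group I kinase that active Rac switches on, had 24764, 28209 and 26083 counts in WT cortex and 17601, 18885 and 16696 in SCA1 KI cortex. No SCA1 KI library reached the lowest WT library, and their mean was 67.3% of WT, with an LFC of −0.57 ± 0.067. In the cerebellum the counts of 16676, 18783 and 18012 in WT and 19058, 18806 and 18523 in SCA1 KI overlapped, with an LFC of 0.08 ± 0.067. The regions differed by −0.65 ± 0.095, which met the threshold.

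Pak3 (chromosome X, 143518591 to 143797796, plus strand), the group I kinase linked to X-linked intellectual disability, met the limits in neither region. Its counts were 6144, 6871 and 5945 in WT cortex and 6288, 8070.0 and 7098 in SCA1 KI cortex, which overlapped, with an LFC of 0.17 ± 0.17. In the cerebellum they were 3643, 2018 and 2285 in WT and 1628, 1630.0 and 1742 in SCA1 KI. The genotypes did not overlap, but WT library 2 lay far above the other two, and the LFC of −0.62 ± 0.17 was −0.37 without that library. Pak3 was called lower in the cerebellum in 5 of 21 other settings, namely edgeR and DESeq2 on the recovered reads, the removal of the length and GC trend, and the fits without WT library 4 of the cerebellum (−0.79) or SCA1 KI library A of the cortex. The difference between regions, 0.79 ± 0.24, met the threshold in 5 of 20 other settings.

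Pak6 (chromosome 2, 118663303 to 118698020, plus strand), a group II kinase, a class that binds the Rac relative Cdc42, was lower in both regions and more so in the cerebellum. In the cortex it had 3875, 3525 and 4703 counts in WT and 2358, 2618 and 2490.4 in SCA1 KI, 61.7% of the WT mean and an LFC of −0.69 ± 0.16. In the cerebellum it had 379.8, 216 and 295 counts in WT and 95.2, 100.2 and 92.9 in SCA1 KI. The lowest WT library lay far above the highest SCA1 KI library, the SCA1 KI mean was 32.4% of WT and the LFC −1.58 ± 0.16. The difference of 0.89 ± 0.23 between regions met the threshold in the fit of all libraries and in 12 of 20 other settings. It was lost without WT library 6 or any SCA1 KI library of the cerebellum and without WT libraries B or C or SCA1 KI libraries E or F of the cortex, and it ran from 0.70 to 1.10 over all settings.

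In the cortex the genotypes did not overlap in 7 of the 10 genes (those called and Gda), as was so for 30.9% of all tested genes in either direction, and in the cerebellum in 8 (those called, Itpka and Pak3), beside 31.8%. The calls of the 6 genes lower in the cortex held in all 21 other fits, and so did those of the 6 genes called in the cerebellum, while a limit of 1 on the absolute LFC kept Ddn and Itpka in the cortex and Ddn, Gda and Pak6 in the cerebellum. The region difference met the threshold in 7 genes, all but Synpo, Tiam1 and Pak3, beside 8.15% of all tested genes. It held in only 11 of 20 other settings for Kalrn and in 12 of 20 for Pak6. Both region contrasts have their own control libraries, but they share 1 estimate of the spread.

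Per kilobase of exon, Ddn was the most abundant of the 10 transcripts in WT cortex, with a level of 14441 ± 1398 normalized counts per kb (SD, n = 3), and Pak1 followed with 6683 ± 441. Itpka (4029), Gda (2888), Kalrn (1338) and Synpo (1135) came next, each apart from its neighbours in every library. Pak6 (774) and Pak3 (662) overlapped, and Tiam1 (533) and Tiam2 (227) closed the order. In SCA1 KI cortex Gda (2467 per kb) stood above Itpka (1537), and Pak3 (749), Kalrn (705) and Synpo (620) formed a run in which neighbours overlapped. In WT cerebellum Pak1 led at 4520 per kb, Tiam1 (1219) and Itpka (1177) overlapped behind it, and Ddn, first in the cortex, was last at 37.4 and overlapped Tiam2 (37.9). In SCA1 KI cerebellum Tiam2 (56.6) stood above Synpo (43.2), Pak6 (18.4), Gda (7.23) and Ddn (3.57), with no overlap between neighbours. In WT mice the normalized count of Ddn was 387-fold and that of Gda 47.0-fold higher in cortex than in cerebellum. Synpo (15.6-fold), Pak6 (13.6-fold) and Kalrn (11.5-fold) came next. This is a comparison between datasets as well as regions and is given without a test.

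**Figure D3:**
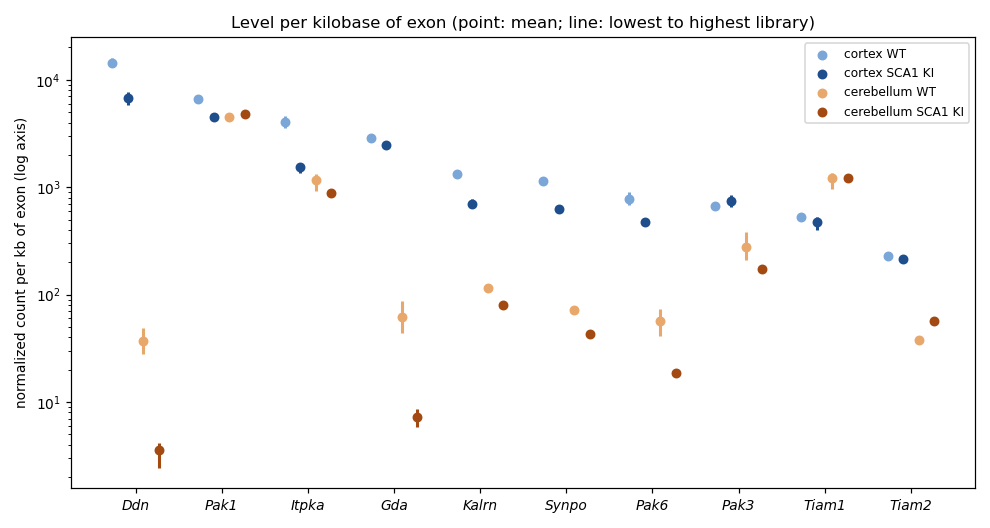
Level of each gene per kilobase of exon (log axis) in the 4 groups, ordered by WT cortex, with points at the mean of 3 libraries and lines from the lowest to the highest. Pak1 stayed between 4496 and 6683 per kb in all groups, whereas Ddn spanned from 14441 in WT cortex to 3.57 in SCA1 KI cerebellum.

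Other markers moved with genotype in the same libraries. In the cortex, 3 of 5 pan-neuronal markers were called lower, and the 5 summed to 293913 to 311036 in WT and 208729 to 229948 in SCA1 KI. Tubb3 of that list was higher in SCA1 KI (11665 to 12020, against 11235 to 11616 in WT). Eno2 overlapped between genotypes (29796 to 31914 in WT and 29550 to 33061 in SCA1 KI). Cortical excitatory markers summed to 25765 to 27129 in WT and 18594 to 23572 in SCA1 KI with 1 of 7 called lower, and astrocyte markers to 54658 to 61210 and 37706 to 47675 with 4 of 6 called lower. Forebrain interneuron markers summed to 11852 to 12850 in WT and 7714 to 8654 in SCA1 KI with 1 of 6 called lower, and 2 of 7 striatal markers were called lower (sums of 6253 to 13741 in WT and 2993 to 7583 in SCA1 KI). The sum of midbrain markers was higher in SCA1 KI cortex (981 to 1771, against 394 to 529 in WT), with 2 of 7 tested called higher. These were Pou4f1 (2.21 to 6.83 in WT and 217 to 372 in SCA1 KI) and Tal1 (115 to 125 and 497 to 991). Of 4 thalamic markers 1 was called higher, with sums that overlapped (832 to 921 in WT and 682 to 1018 in SCA1 KI). Shox2 of that list had 0 counts in every WT library and 16.2 to 51.4 in SCA1 KI. In bulk tissue, fewer cells of a type and less RNA per cell cannot be told apart. The part of these markers in the differences of Synpo, Ddn, Itpka, Kalrn, Pak1 and Pak6 was not tested. The 6 calls held without library A and without library F. Pou4f1 and Tal1 were higher than in WT in every SCA1 KI library, so leaving out 1 library does not test that part.

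In the cerebellum, some markers of midbrain, thalamus, hippocampus, striatum and forebrain interneurons were higher in WT than in SCA1 KI, and others were not. Of 7 tested midbrain markers (8 listed) 3 were called lower in SCA1 KI, with sums of 1478 to 1839 in WT and 923 to 1217 in SCA1 KI, and of 4 thalamic markers 3 were, with sums of 4466 to 5591 and 2726 to 2791. Pou4f1, a transcription factor of midbrain and habenula neurons, had 139, 46.4 and 83.9 counts in WT libraries 2, 4 and 6 and 2.53, 6.87 and 10.6 in SCA1 KI libraries 1, 3 and 5. The midbrain marker Otx2 overlapped between genotypes (584 to 792 in WT and 571 to 812 in SCA1 KI). Forebrain interneuron markers summed to 800.1 to 1331 in WT and 269.8 to 299 in SCA1 KI, with 3 of 6 called lower. Hippocampal markers summed to 68.4 to 254 in WT and 23.6 to 31.0 in SCA1 KI with 1 of 3 called lower, and Fibcd1 of that list had 58.6 to 226 counts in WT, highest in library 2 and least in library 4, and 9.61 to 11.6 in SCA1 KI. Of 7 tested striatal markers 1 was called lower, with sums of 9072 to 10341 in WT and 7735 to 8148 in SCA1 KI, and Drd2 lay at 106 to 215 in WT and 13.7 to 20.3 in SCA1 KI. Cortical excitatory markers summed to 4615 to 5373 in WT and 5325 to 5523 in SCA1 KI, with 1 of 7 called higher. Of these, Fezf2 (at most 1.16) and Emx1 (at most 5.81) were at or near 0 in both genotypes. Choroid plexus markers ran from 18550 to 70154 in WT and from 543 to 73286 in SCA1 KI, none of 4 called. Purkinje cell markers summed to 284365 to 356788 in WT and 261367 to 293880 in SCA1 KI, and oligodendrocyte markers to 178046 to 266831 and 152414 to 152494, with 0 of 7 and 0 of 6 called. Library 2 held the most and library 4 the least counts of Synpo, Ddn, Gda, Pak3 and Pak6 among the WT libraries, an order shared by 7 of the 11 midbrain and thalamus markers tested and by 23.0% of all tested genes. Without WT library 2 the LFC was −3.08 for Ddn, −2.73 for Gda, −1.38 for Pak6 and −0.71 for Synpo, and all 4 still met the limits. WT libraries 4 and 6 also held more Pou4f1 (46.4 and 83.9) than any SCA1 KI library (at most 10.6), so that fit does not test the part of these markers. The part of these markers in the cerebellar differences was not tested for any of the 10 genes, among them the called Synpo, Ddn, Gda, Kalrn, Pak6 and Tiam2.

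**Figure D4:**
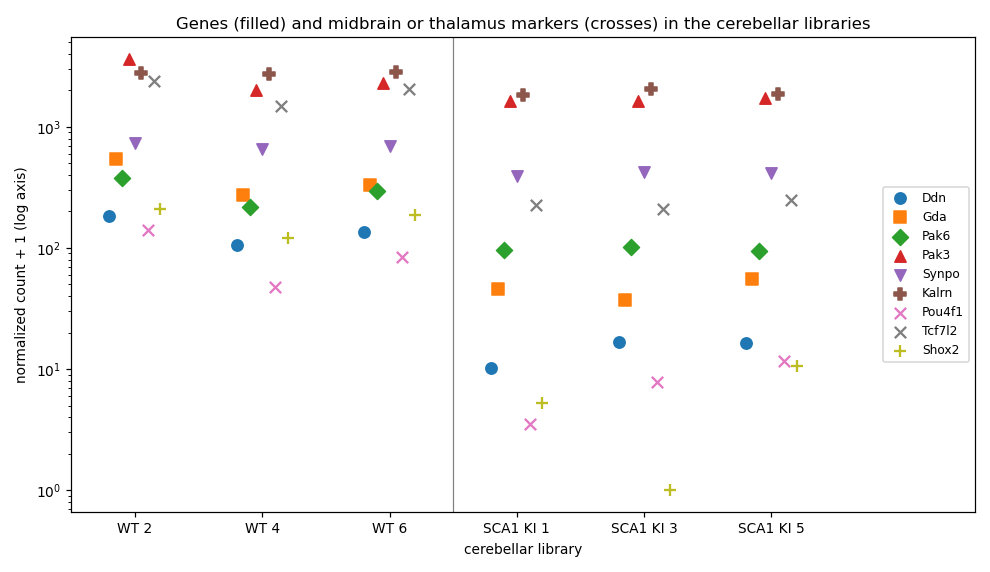
Normalized count + 1 (log axis) in the 3 WT and 3 SCA1 KI libraries of the cerebellum for 6 of the 10 genes and for Pou4f1 (midbrain), Tcf7l2 and Shox2 (thalamus). Tcf7l2 lay at 1480.4 to 2404 in WT and 210.1 to 249 in SCA1 KI. Among WT libraries the 3 markers drawn, Ddn, Gda and Pak6 all peaked in library 2 and were least in library 4. Of the 11 midbrain and thalamus markers tested, 7 had this order and the rest, among them Otx2 and Prkcd, did not.

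Of 97 other genes of the Rac, PAK and spine actin machinery, all tested, 29 were called lower and 3 higher in SCA1 KI cortex, and 4 lower and 1 higher in SCA1 KI cerebellum. Over all tested genes these shares were 10.8% and 4.82% in the cortex and 4.44% and 0.917% in the cerebellum, so that the 3 higher in the cortex and the 4 lower in the cerebellum were no more than the background share of 97 genes. The 4 were called lower in both regions, as were 1.28% of all tested genes. In neither region were 65 of the 97 called, beside 12417 of all 15369 tested genes. The median LFC of the 97 was −0.13 in the cortex and −0.019 in the cerebellum. By function, 9 of 21 other spine actin proteins, 7 of 20 exchange factors, 5 of 12 GAPs and inhibitors, 4 of 20 genes of the WAVE and Arp2/3 complexes and 3 of 17 PAKs and partners were called lower in the cortex. The difference between regions met the threshold in 16, beside 8.15% of all tested genes.

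Partners of the proteins above were among them. Sipa1l1, a spine protein that regulates Rap and actin, went from 26854 ± 1377 (SD, n = 3) in WT cortex to 14588 ± 1637 in SCA1 KI cortex (LFC −0.89, adjusted p = 1.43e-05 from limma). Git1, the scaffold that brings PAK and its exchange factor βPIX to synapses, went from 20204 ± 547 to 11256 ± 1151 (LFC −0.85, adjusted p = 1.43e-05 from limma). Neither was called in the cerebellum, and the difference between regions met the threshold for both (−0.80 and −0.71), as it did for the exchange factor Dock3 (−0.53), which fell in the cortex with an LFC of −0.48. Chn1, a GAP that turns Rac off, was lower in both regions, with LFCs of −0.72 and −0.62 (adjusted p = 6.11e-05 and 0.000457 from limma). Arhgap32 (−0.60 and −0.30), Abr (−0.36 and −0.37) and Rnd2 (−0.35 and −0.47), whose exons overlap Vat1 over 11.4% of their length, were called lower in both regions as well, with adjusted p of 0.0355 for Arhgap32, 0.00493 for Abr and 0.0242 for Rnd2 in the cerebellum (limma). Arhgap32 lost its call in the cerebellum with centring, with the length and GC trend removed and without any 1 of the 6 cerebellar libraries (LFC −0.33 to −0.22), and Rnd2 without WT library 2 or 6 or SCA1 KI library 1 or 3 (−0.47 to −0.41).

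The genes higher in the cortex were Rac3, a neuronal Rac (LFC 0.52, adjusted p = 0.0498 from limma), Dock9, an exchange factor for Cdc42 (0.36), and Arpc5, a subunit of the Arp2/3 complex that nucleates branched actin (0.26). Rac3 lost its call in 12 other settings (LFC 0.36 to 0.57), 9 of them fits without 1 library (A, B, C or E of the cortex or 1, 2, 3, 5 or 6 of the cerebellum), and its genotypes overlapped. Arpc5 lost it in 5 (0.19 to 0.26), among them those without SCA1 KI library A or E or WT library B, and Dock9 without SCA1 KI library E (0.27). Eps8, which caps actin filaments, was called in opposite directions, with LFCs of −0.47 in the cortex and 0.51 in the cerebellum and a difference of −0.98 between regions, and it lost the cerebellar call without WT library 2, SCA1 KI library 1 or SCA1 KI library 3 (0.39 to 0.50). Pak5, listed under its older symbol Pak7 and a group II kinase like Pak6, went the other way from Pak6 between regions: its LFC was −0.71 in the cortex and 0.39 in the cerebellum, where it was not called (adjusted p = 0.0589 from limma), and the difference was −1.10.

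**Figure D5:**
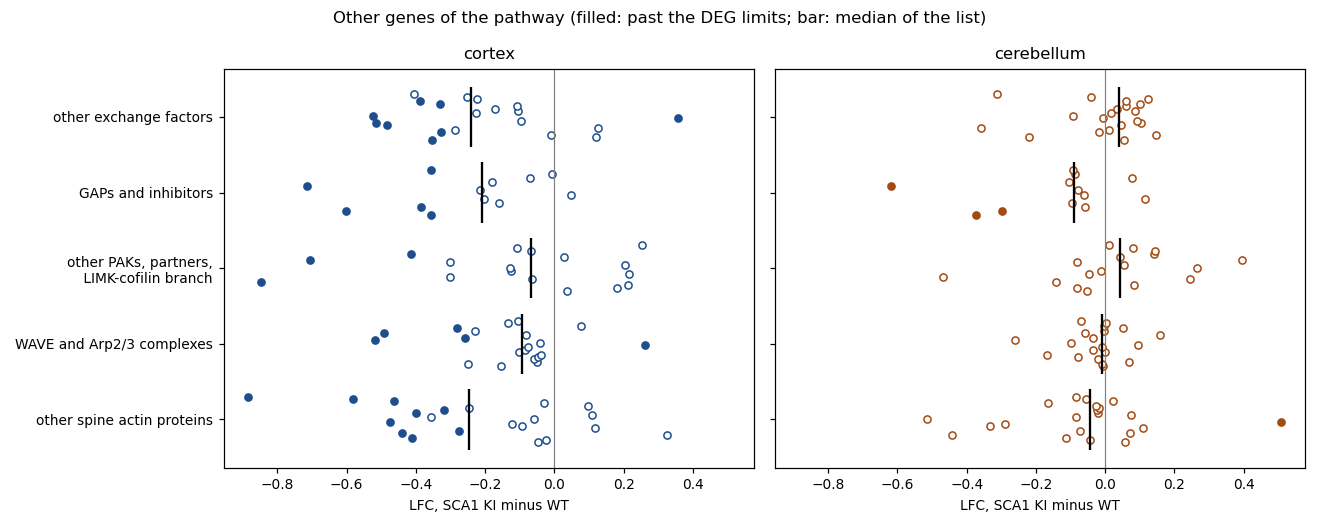
LFC of SCA1 KI against WT in cortex (left) and cerebellum (right) for 90 of the 97 other genes, in 5 lists by function, filled where the DEG limits were met, with a bar at each list's median. In the cortex 28 filled points lie left of 0 and 2 right of it, and in the cerebellum 3 and 1.

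Some of the 10 genes varied together and others did not. Over the 12 libraries, as deviations of log2(normalized count + 1) from the mean of the region, Pearson's r was 0.97 between Synpo and Kalrn, 0.98 between Ddn and Pak6 and 0.95 between Ddn and Gda, whereas it was 0.92 between Itpka and Kalrn, 0.88 between Itpka and Pak1 and −0.93 between Gda and Tiam2. It was 0.15 between Ddn and Pak1, −0.08 between Gda and Pak1 and −0.14 between Itpka and Pak3. For Tiam1 it was at most 0.44 in size with any other of the 10 (−0.44 with Pak3). The 12 libraries share genotype and region, so the values are a description. By the same measure, among 12654 genes that averaged 100 normalized counts or more, the gene most like Synpo was Camk2a (r = 0.98), a kinase of the postsynaptic density, that most like Ddn was Kcnip2 (0.99), a potassium channel partner, and that most like Gda was Cnih3 (0.99), an AMPA receptor auxiliary subunit. The closest to Kalrn was Gria3 (0.98), an AMPA receptor subunit, to Itpka Phospho1 (0.98), to Pak1 Ccng1 (0.98), to Pak3 Pam (0.99), to Pak6 Kcnh5 (0.98), to Tiam2 Casd1 (0.93) and to Tiam1 Xpo4 (0.92). Camk2a had LFCs of −1.12 in the cortex and −1.0 in the cerebellum, beside −0.87 and −0.75 for Synpo, and Kcnip2 −0.82 and −2.63, beside −1.10 and −3.29 for Ddn.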

How the data were processed

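Bulk poly-adenylated RNA of 12 libraries was analysed. Alignment by the authors used STAR and mm10, gene counting featureCounts and normalization DESeq2 (versions and annotation not given in the sources used here), and the deposited signal is the normalized count, each library's reads divided by 1 size factor. In every library 100% of the values were whole reads (within 0.02). The main fit used limma 3.58.1 (trended eBayes, in R 4.3.3) on log2(normalized count + 1), with 4 group means, after leaving out 390 entries that averaged under 10 normalized counts. Adjusted p are Benjamini-Hochberg values. The LFC on this scale understates changes of low counts. edgeR 4.0.16 and DESeq2 1.42.0 on the recovered reads, pseudocounts of 0.5 and 5, other filters, scalings and LFC limits, a fit per region, removal of a length and GC trend and 12 fits leaving out 1 library were alternatives. Coordinates and exon lengths are from GENCODE on GRCm38 (15009 symbols matched), promoters from RefSeq. No library was a copy of another: within groups, pairs differed by a chi-square of 7.43 to 36.0 per gene. Scripts were tested on simulated data. The genes, the lists of pathway and marker genes and the tests were chosen with earlier results of these data known. Named from the pathway lists were, per region and direction, the 5 called genes with the smallest p, the 5 with the smallest p for the region difference, and for each of the 10 genes the gene with the highest correlation. Markers Drd1, Hbb-bs and Hba-a1 were not matched. The counts of 1 further list of pathway genes are not reported here.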

Additional observations from a re-analysis of the deposited data

Results flagged for a closer look

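The difference between genotypes was not the same in cortex and cerebellum for 12 of the genes named here, by limma's test of the LFC in the cortex minus that in the cerebellum at an adjusted p under 0.05 over all tested genes. Among the 10 genes the difference was 2.79 for Gda, 2.19 for Ddn and 0.89 for Pak6, whose LFC was more negative in the cerebellum, and −0.98 for Itpka, −0.65 for Pak1 and −0.39 for Kalrn, whose LFC was more negative in the cortex. For Tiam2 it was −0.67, with a called rise in the cerebellum and no call in the cortex. These 7 were known before this fit, so the values are a description. Of the other genes, it was −1.10 for Pak7 and −0.98 for Eps8, with LFCs of opposite sign in the 2 regions. It was −0.80 for Sipa1l1, −0.71 for Git1 and −0.53 for Dock3. These other genes were named for the smallest p of this same test among the 97 pathway genes, so their passing it is no separate evidence. The difference met the threshold in 16 of the 97 pathway genes, beside 8.15% of all tested genes. Region and dataset cannot be told apart in any of the 12 genes.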

How the results depend on the processing

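No result changed direction among those called. Of the LFCs of the 10 genes, 611 of 620 values under other settings lay within 1 SD of the spread between libraries and 9 moved further, of which 7 came from removing the trend on length and GC content. A limit of 1 on the absolute LFC left 2 of the 10 genes lower in the cortex, 3 lower and 0 higher in the cerebellum, and none (0) of the other pathway genes in either region. Without a limit, 5 pathway genes were higher in the cortex. With each region on its own, 1 was higher in the cortex, and 7 were lower and 2 higher in the cerebellum. DESeq2 gave 7 lower and 3 higher in the cerebellum, centring 3 higher, and the removal of the length and GC trend 4 higher. Leaving out 1 library gave 22 to 30 pathway genes lower and 0 to 3 higher in the cortex (0 without SCA1 KI library E), 2 to 6 lower and 0 to 2 higher in the cerebellum, and 10 to 20 with a region difference (10 without SCA1 KI library 3). The 2 lower genes came without WT library 2 or 6 or SCA1 KI library 1 or 3, the 0 higher without WT library 2 or SCA1 KI library 1 or 3, and the 2 higher without WT library 4 or cortical SCA1 KI library E or F. The same fits gave 6 of the 10 genes lower in the cortex and 0 higher, 5 to 6 lower and 1 higher in the cerebellum, and 5 to 7 with a region difference. The cause of these moves was not tested. No paired analysis was possible because the columns carry none of the labels' replicate numbers. With 3 libraries per group the spread rests on few values, and Ddn in SCA1 KI cerebellum on 11 to 23 reads.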
